A study of Homo sapiens with 12 samples.

Results

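Genes of the lysosome and of autophagy were followed through 12 RNA libraries from 2 human testicular germ cell tumour lines. The set held 41 genes, defined by gene symbol. It was chosen with earlier results of these data known, so its shares beside those of all genes are a description. It comprised 9 lysosomal proteases, 11 other acid hydrolases, 9 genes of the lysosomal membrane, its cargo and cofactors, 4 subunits of the vacuolar ATPase, 6 autophagy genes and 2 transcription factor genes. Each symbol was found once among the 63241 genes of the deposited table, and 39 of the 41 passed the filter on low counts. The other 2, CTSF and MAN2B1, had 31 and 27 counts over all 12 libraries and were not tested.

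2102 EP is a line of embryonal carcinoma, whose cells resemble pluripotent stem cells, and TCam-2 is a line of seminoma, whose cells resemble primordial germ cells. Both are labelled WT for genotype, and the labels name no engineered allele in any group. The 4 groups were 2102 EP (in DMEM) with DMSO, 2102 EP with 15 µM I-BRD9, TCam-2 (in RPMI) with DMSO and TCam-2 with 15 µM I-BRD9, each for 24 h and with 3 libraries. I-BRD9 is a chemical inhibitor of the bromodomain of BRD9, which belongs to the non-canonical form of the chromatin remodeller BAF, and DMSO is its solvent. Each tumour type is represented by 1 line, and medium and line cannot be told apart. The compound acts on a protein, so that no transcript level here measures the inhibition itself.

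Lysosomes are acidic organelles in which hydrolases break down proteins, glycans, lipids and glycogen. A proton pump, the vacuolar ATPase, keeps them acid, and membrane proteins protect the wall and export the products. Autophagy delivers cytoplasm to them: the ULK1 kinase starts the process, WIPI proteins mark the growing membrane, proteins of the LC3 and GABARAP families coat it, and receptors such as SQSTM1 (p62) bring in cargo. The basic helix-loop-helix factors TFEB and TFE3 bind a short palindrome, the CLEAR element, at many of these genes. Their activity is controlled to a large part by phosphorylation and location in the cell, which a transcript count does not read.

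The CLEAR core is TCACGTGA, and it holds the E-box CACGTG. Both were searched on both strands in the RefSeq promoters (GRCh38.p14, from 250 bases before the start to 50 after it), of which 30 of the 41 genes had an entry. The sequences below are examples, and the genes that hold them did not all respond in the same way. LAMP1, MCOLN1, ATP6V0D1, CTSA and GAA hold the complete core. NEU1 holds an E-box alone and rose in both lines. CLN3, with a core, and CD63, CTSD and CTSF, with the E-box alone, are not printed. Capitals mark the CLEAR core where it is complete and the E-box elsewhere. LAMP1 had 6 E-boxes, 4 of them in a row of near-repeats; the stretch is chr13:113297027-113297238 on the plus strand, and its last capitals are the first bases of a core that runs over the start.
LAMP1 upstream: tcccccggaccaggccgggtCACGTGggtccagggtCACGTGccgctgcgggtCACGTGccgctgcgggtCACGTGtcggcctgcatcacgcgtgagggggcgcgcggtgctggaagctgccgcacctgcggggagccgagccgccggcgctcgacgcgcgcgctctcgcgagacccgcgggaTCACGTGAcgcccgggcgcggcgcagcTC
MCOLN1 had 2 complete cores within 42 bases of the start (chr19:7522563-7522623, plus strand).
MCOLN1 upstream: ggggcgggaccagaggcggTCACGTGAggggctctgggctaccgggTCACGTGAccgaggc
NEU1 had 1 E-box without the complete core, 126 bases before the start (chr6:31862922-31862967, minus strand).
NEU1 upstream: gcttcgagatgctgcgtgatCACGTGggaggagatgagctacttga
Short stretches of 22 bases show the cores of ATP6V0D1 (chr16:67481203-67481224, minus strand, 60 bases before the start), CTSA (chr20:45891302-45891323, plus strand, 26 before) and GAA (chr17:80101497-80101518 and chr17:80101542-80101563, plus strand, 77 and 32 before). These starts are those of the promoter entries, and they can differ from the gene starts of GENCODE, which gives the gene coordinates below. By GENCODE the printed cores of ATP6V0D1 and CTSA lie inside the gene. Bases in annotated exons were counted over the motifs with up to 20 bases on either side. They were 46 of 46 for ATP6V0D1, 62 of 62 for CTSA and 20 of 91 for GAA. For LAMP1, MCOLN1 and NEU1 the number was 0.
ATP6V0D1 site: cttatggTCACGTGAggcgctt
CTSA site: ccggagtTCACGTGActcgtac
GAA site 1: ggccgcgTCACGTGAcccaccg
GAA site 2: ccgccggTCACGTGAcccgcct

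An E-box was in 10 of the 30 member promoters (33.3%), and the complete core in 6 of them (20%). Over all 27305 promoters of the table the shares were 7.43% and 1.04%, and over the 11235 promoters of genes tested here 9.93% and 1.9%. The 6 genes with the core were ATP6V0D1, CLN3, CTSA, GAA, LAMP1 and MCOLN1, and CD63, CTSD, CTSF and NEU1 had the E-box alone. No match in this window was found for SQSTM1, WIPI1, NPC1, NPC2, TPP1, SCARB2, GABARAPL1, ULK1, MAP1LC3B, TFEB or TFE3. Only exact matches were counted, so near-matches are not included. A match is a description of the letters and shows no binding. As the element is known from many of these genes, a higher share among them is no independent result.

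The libraries held 7290335 to 10053366 estimated counts. Levels are in CPM, counts scaled to a common library total with the sizes adjusted by TMM, the ± beside a mean is the SD over 3 libraries, and the ± beside a log2 fold change is the standard error of the model. Genes given only because they overlap the 3′ end of another gene (such as MRNIP and PLTP) have CPM without the TMM adjustment. The kit reads transcript 3′ ends, so that CPM do not depend on gene length. A gene was called when its adjusted p (edgeR's quasi-likelihood test on all 12 libraries, Benjamini-Hochberg adjustment over 15614 genes) was under 0.05, and the p-values measure only the spread between these samples, which the labels call biological replicates without saying whether each was a separate culture. CPM are shares of a library, so fewer cells of a type and less RNA per cell cannot be told apart. Replicates correlated with Pearson r of 0.971 to 0.981. I-BRD9 replicate 1 of 2102 EP had the fewest counts and the lowest correlations with its group (0.974 and 0.971). Most markers of the cell types went with the labels, and 3 did not. With DMSO 5 of 7 embryonal carcinoma markers were called lower in TCam-2 than in 2102 EP, while NANOG (175 ± 19.4 CPM in 2102 EP and 524 ± 29.8 in TCam-2) and POU5F1 (386 ± 24.4 and 695 ± 53.03), which seminomas also express, were higher in TCam-2. Of 7 tested seminoma markers, 6 were called higher in TCam-2, and ALPL was lower (52.3 ± 4.01 in 2102 EP and 28.5 ± 2.13). SOX2 had 468 ± 21.1 CPM in 2102 EP and 17.1 ± 2.28 in TCam-2 with DMSO, and SOX17, of seminoma, had 0.0774 and 193 ± 6.66. Markers of macrophages and leukocytes, cells rich in lysosomes, summed to at most 2.18 CPM over 7 genes in any library, and PTPRC, CD14 and LYZ had no count in 2102 EP with DMSO. CSF1R was found in every group, with 19 and 29 counts in 2102 EP and 15 and 33 in TCam-2 (DMSO and I-BRD9). Of 6 fibroblast genes, DCN and LUM had no count in 2102 EP and at most 3 and 17 in a group of TCam-2. COL1A1 had 16.4 and 20.5 CPM in 2102 EP and 19.3 and 16.3 in TCam-2 (DMSO and I-BRD9). PDGFRB had 1.71 and 2.72 CPM in 2102 EP. In TCam-2 COL1A2 carried most of a sum of 168 to 179 CPM with DMSO and 87.9 to 135 with I-BRD9. The part of these genes in the results was not tested.

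After I-BRD9, more of these genes rose than fell in both lines. In 2102 EP 16 of the 39 tested genes rose (41%) and 4 fell (10.3%), where 18.2% of all genes tested rose and 18.6% fell. In TCam-2 19 rose (48.7%) and 1 fell (2.56%), against 15.3% and 16.5% of all genes. These shares of all genes are also the background for the counts by role below, which rest on few genes each. The median log2 fold change over the 39 genes was 0.26 in 2102 EP and 0.30 in TCam-2, beside 0.00 and 0.01 over all genes tested. All I-BRD9 libraries lay above all DMSO libraries for 17 of the 39 genes in 2102 EP and below them for 4, where 23.1% and 23.2% of all genes were separated so. The same counts in TCam-2 were 23 and 3, with 22.9% and 22.8% of all genes. The summed level of all 41 genes went from 2631 ± 116 to 3354 ± 54.4 CPM in 2102 EP and from 3435 ± 56.5 to 3945 ± 14.1 CPM in TCam-2, ratios of 1.27 and 1.15. SQSTM1 alone made up a large part of the first, and without it the ratios were 1.13 in both lines.

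The same 13 genes rose in both lines: CTSH, TPP1, NEU1, LIPA, ASAH1, LAMP2, SCARB2, NPC1, NPC2, PSAP, ATP6V0D1, SQSTM1 and WIPI1. How many of all genes rose in both lines was not counted, so this count has no background beside it. CTSB, ATP6V1A and ATP6V0E1 were called higher in 2102 EP alone, and CTSA, GAA, GLB1, MAP1LC3B and ULK1 in TCam-2 alone, which by itself shows no difference between the lines. CTSC, SGSH and TFE3 were called lower in 2102 EP alone and CD63 in TCam-2 alone. GABARAPL1 fell in 2102 EP and rose in TCam-2, and 13 genes were called in neither line. The embryonal carcinoma markers, 7 pluripotency genes, moved with the compound as well: their sum was 2304 to 2462 CPM with DMSO and 619 to 691 with I-BRD9 in 2102 EP, and 1300 to 1378 and 394 to 410 in TCam-2, with none of the 7 at 0 in 2102 EP. The seminoma markers moved too: the sum of all 8 was 1520 to 2024 CPM with DMSO and 1244 to 1414 with I-BRD9 in TCam-2, where 5 of the 7 tested fell, among them SOX17 (193 ± 6.66 to 45.3 ± 3.12 CPM, log2 −2.09), PRDM1 (−2.40) and ALPL (−1.54), and KIT rose (0.90). In 2102 EP that sum was 214.5 to 295 and 174.8 to 176 CPM. The part of both lists in the results on lysosomal genes was not tested.

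**Figure D1:**
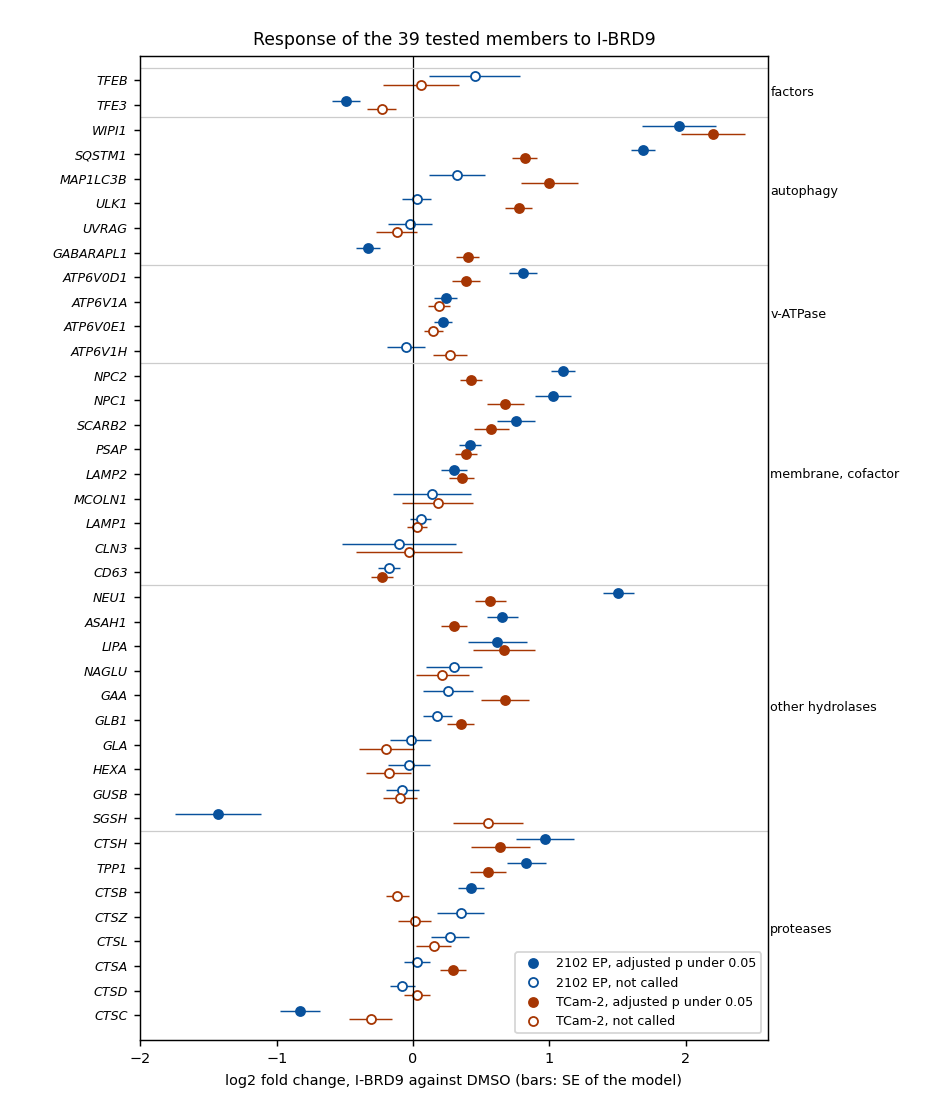
Log2 fold change with I-BRD9 against DMSO for the 39 tested genes, ordered by role, in 2102 EP (blue) and TCam-2 (brown); bars are the standard error of the model, filled points have an adjusted p under 0.05 and open points do not. Most filled points lie right of 0, WIPI1, SQSTM1 and NEU1 reach farthest to the right in 2102 EP, and SGSH lies farthest to the left there and right of 0 in TCam-2.

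Among the autophagy genes, SQSTM1, the cargo receptor p62 (ENSG00000161011, chr5:179806398-179838078, plus strand, GRCh38), was the most abundant in 2102 EP. It had 176, 189 and 192 CPM in the 3 DMSO libraries of 2102 EP and 631, 527 and 634 with I-BRD9. Every treated library was above every control, and the log2 fold change was 1.69 ± 0.09 (3.22-fold, edgeR adjusted p = 1.82e-12). TCam-2 started lower, at 77.7, 87.03 and 68.3 CPM, and reached 142, 140.3 and 129.7. That rise was again without overlap, at 0.82 ± 0.09 (3.71e-07). The 3′ end of SQSTM1 overlaps exons of MRNIP on the other strand, whose mean level was 14.8 and 28.4 CPM in 2102 EP and 14.7 and 26.4 in TCam-2 (DMSO and I-BRD9). Without a stated strand setting reads of the pair cannot be told apart; MRNIP's level was below that of SQSTM1 in every group, and its part in the result was not tested.

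WIPI1, which binds the lipid of the forming autophagosome (ENSG00000070540, chr17:68420948-68457513, minus strand), had the largest fold change of the 39 genes in both lines. In 2102 EP it had 2.06, 2.48 and 3.71 CPM with DMSO and 13.5, 7.81 and 10.7 with I-BRD9, and in TCam-2 3.78, 6.69 and 6.24 and 24.2, 30.9 and 22.3. The groups did not overlap in either line. The log2 fold changes were 1.95 ± 0.27 (edgeR adjusted p = 6.22e-06) and 2.20 ± 0.23 (2.04e-07). ARSG, on the other strand over the 3′ end of WIPI1, had 0.229 and 0.447 CPM in 2102 EP and 2.44 and 3.64 CPM in TCam-2, below WIPI1 in every group.

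GABARAPL1, a coat protein of the autophagosome (ENSG00000139112, chr12:10212458-10223130, plus strand), went in opposite directions. Its levels with DMSO were 79.96, 82.1 and 81.05 CPM in 2102 EP and 83.9, 90.9 and 82.04 in TCam-2, and overlapped. With I-BRD9 they were 70.2, 60.2 and 62.9 in 2102 EP, all below the controls, and 105, 115 and 119.9 in TCam-2, all above them. It fell by 0.33 ± 0.09 on the log2 scale in 2102 EP (edgeR adjusted p = 0.00493) and rose by 0.40 ± 0.09 in TCam-2 (0.000935). 

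ULK1, the kinase at the start of autophagy (ENSG00000177169, chr12:131894651-131923167, plus strand), had 46.7, 48.2 and 43.8 CPM with DMSO and 53.99, 47.4 and 40.3 with I-BRD9 in 2102 EP, where the groups overlapped (0.03 ± 0.10, edgeR adjusted p = 0.873). In TCam-2 it rose from 55.01, 64.1 and 61.7 to 107, 99.5 and 103 CPM, without overlap (0.77 ± 0.10, 2.51e-06). MAP1LC3B, the LC3B coat protein, rose in TCam-2 from 20.1, 19.8 and 18.9 to 37.9, 33.5 and 46.3 CPM (1.00 ± 0.21, 0.00243). In 2102 EP its libraries spread widely and overlapped, with 32.7, 32.9 and 21.2 and 25.2, 37.6 and 45.5 CPM (0.32 ± 0.21, 0.251), and it was called there without I-BRD9 replicate 1 (adjusted p = 0.0137). Part of the MAP1LC3B counts was shared with another gene in 9 of the 12 libraries, so its levels are uncertain. UVRAG, a partner of the lipid kinase complex of autophagy, had log2 fold changes of −0.02 ± 0.16 and −0.12 ± 0.15 and was not called. Thus 2 of the 6 autophagy genes rose and 1 fell in 2102 EP, while 5 rose in TCam-2, with medians of 0.17 and 0.80.

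**Figure D2:**
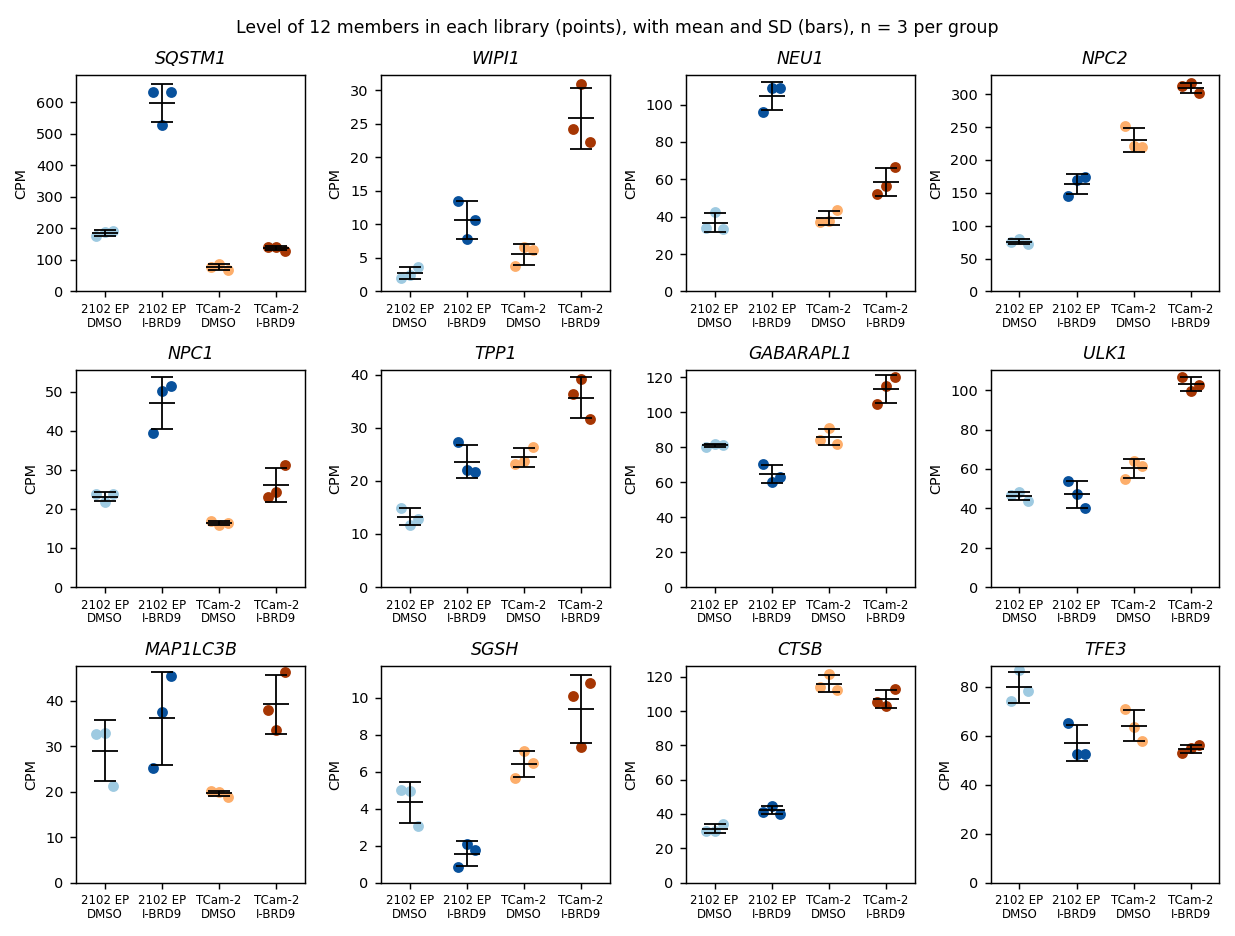
Level in CPM of 12 of the genes in each of the 12 libraries (points), with the mean and SD of each group of 3 (bars), in 2102 EP and TCam-2 with DMSO and I-BRD9; every axis starts at 0. SQSTM1, WIPI1, NEU1, NPC2, NPC1 and TPP1 are higher with I-BRD9 in both lines without overlap, GABARAPL1 and SGSH go opposite ways, and ULK1 is higher in TCam-2.

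Of the 9 membrane, cofactor and channel genes, 5 rose in each line (LAMP2, SCARB2, NPC1, NPC2 and PSAP), and the medians were 0.30 and 0.36. NPC2, the soluble protein that hands cholesterol on for export (ENSG00000119655, chr14:74476192-74494177, minus strand), had 75.96, 80.1 and 71.97 CPM with DMSO and 145, 169 and 174 with I-BRD9 in 2102 EP. Its levels in TCam-2 were 252, 222 and 219 and 312, 316 and 302 CPM. The groups were apart in both lines, with log2 fold changes of 1.10 ± 0.09 (edgeR adjusted p = 9.59e-10) and 0.43 ± 0.08 (0.000311). NPC1, the membrane protein that takes cholesterol from NPC2 (ENSG00000141458, chr18:23506184-23586898, minus strand), had 23.9, 21.8 and 23.8 and 39.4, 50.2 and 51.5 CPM in 2102 EP. It had 16.9, 15.9 and 16.3 and 23.1, 24.3 and 31.2 in TCam-2. Both rises were without overlap, at 1.03 ± 0.13 (1.85e-06) and 0.68 ± 0.14 (0.000523).

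SCARB2, a membrane protein that carries glucocerebrosidase to the lysosome, rose from 17.7 ± 2.11 to 29.6 ± 5.62 CPM in 2102 EP and from 32.5 ± 2.66 to 48.3 ± 3.95 in TCam-2 (log2 0.75 and 0.57, edgeR adjusted p = 0.000179 and 0.00145). PSAP encodes prosaposin, whose fragments help hydrolases reach their lipids, and had the highest level with DMSO among the genes that rose in both lines. It went from 294 ± 21.5 to 393 ± 35.9 CPM and from 629 ± 11.2 to 823 ± 46.3 (0.42 and 0.39, 0.000387 and 0.000863). LAMP2, a glycoprotein that lines the lysosome, rose by 0.30 ± 0.09 (0.0146) in 2102 EP and 0.36 ± 0.09 (0.00467) in TCam-2. The 2102 EP call of LAMP2 was lost without DMSO replicate 3 (adjusted p = 0.09) or I-BRD9 replicate 3 (0.0567).

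CD63, a tetraspanin of late endosomes, was among the most abundant of the genes and went the other way. It had 738, 807 and 799 CPM in TCam-2 controls and 682, 635 and 681 after I-BRD9, a fall without overlap (−0.23 ± 0.08, edgeR adjusted p = 0.0317). It was the only one of the 39 genes called lower in TCam-2, and the call was lost without DMSO replicate 2 (adjusted p = 0.102), DMSO replicate 3 (0.083) or I-BRD9 replicate 2 (0.121), and also with upper-quartile scaling (0.0608). Without the low-count filter the call was lost as well. In 2102 EP CD63 had a log2 fold change of −0.18 ± 0.08 (0.0928), and was called lower there with DESeq2. LAMP1, the partner of LAMP2 with the E-box-rich promoter shown above, had 118, 124 and 115 CPM with DMSO and 124, 124 and 122 with I-BRD9 in 2102 EP, and 175, 197 and 175 and 189.7, 179 and 189 in TCam-2. Its groups overlapped in both lines and its log2 fold changes were 0.06 ± 0.08 and 0.03 ± 0.08. MCOLN1, the calcium channel with 2 CLEAR cores, had 0.14 ± 0.29 and 0.18 ± 0.26 at levels of 3.02 to 5.56 CPM on average, and CLN3, a membrane protein lost in a childhood storage disease, had −0.10 ± 0.42 and −0.03 ± 0.39 at 2.42 to 3.19 CPM; neither was called. The large errors of MCOLN1 and CLN3 come with their low counts. The 3′ end of MCOLN1 overlaps exons of PNPLA6 on the same strand. PNPLA6 was more abundant, with 18.5 and 24.1 CPM in 2102 EP and 27.4 and 38.2 in TCam-2 (DMSO and I-BRD9). Its log2 fold changes were 0.31 and 0.40, and its part in the MCOLN1 value was not tested. CLN3 also shared reads with another gene in 11 libraries. Of the tested genes that rose, TPP1 did so in 5 libraries, ATP6V0D1 in 3, CTSA, GAA and LAMP2 in 2 and PSAP in 1, which leaves their levels less certain; MAP1LC3B is given above.

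Among the 8 tested proteases, 3 rose and 1 fell in 2102 EP, and 3 rose in TCam-2, with medians of 0.31 and 0.09. TPP1, an enzyme that takes tripeptides off proteins (ENSG00000166340, chr11:6612763-6619485, minus strand), had 14.99, 11.8 and 12.9 CPM with DMSO and 27.3, 22.04 and 21.6 with I-BRD9 in 2102 EP. In TCam-2 its levels were 23.1, 23.8 and 26.4 and 36.4, 39.2 and 31.7 CPM. Neither pair of groups overlapped, and it rose by 0.83 ± 0.14 (edgeR adjusted p = 7.16e-05) and 0.55 ± 0.13 (0.00247). CTSH, an aminopeptidase, rose from 7.76 ± 2.07 to 15.2 ± 3.10 CPM (0.97, 0.000947) and from 7.29 ± 1.12 to 11.4 ± 1.66 (0.64, 0.0259). The TCam-2 call of CTSH was lost without DMSO replicate 1 (adjusted p = 0.101), DMSO replicate 2 (0.0876) or I-BRD9 replicate 2 (0.125).

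CTSB, the cysteine protease cathepsin B, had 29.9, 30.2 and 34.3 CPM with DMSO and 41.5, 44.8 and 40.2 with I-BRD9 in 2102 EP, a rise without overlap (0.43 ± 0.09, edgeR adjusted p = 0.00111). In TCam-2 it was far more abundant and its groups overlapped, with 114, 122 and 112 and 106, 103 and 113 CPM (−0.12 ± 0.09, 0.332). CTSC, which activates serine proteases of granules (ENSG00000109861, chr11:88293592-88337787, minus strand), fell in 2102 EP from 30.2, 30.3 and 27.9 to 13.2, 16.8 and 19.5 CPM, without overlap (−0.83 ± 0.15, 0.000122). In TCam-2 its 3 treated libraries were also below the controls, at 17.5, 13.9 and 14.4 and 12.5, 11.8 and 12.6 CPM, but the gene was not called (−0.31 ± 0.16, 0.136). CTSA, the serine protease that protects NEU1 and beta-galactosidase, rose in TCam-2 from 38.5 ± 2.08 to 47.2 ± 0.726 CPM (0.30, 0.0201), and had 0.03 ± 0.09 in 2102 EP. That call was lost without DMSO replicate 2 (adjusted p = 0.0951), I-BRD9 replicate 1 (0.057) or I-BRD9 replicate 3 (0.0503). PLTP, whose exons overlap the 3′ end of CTSA on the other strand, had 49.2 and 65.8 CPM in 2102 EP and 43.9 and 85.8 in TCam-2 (DMSO and I-BRD9), and its part in the CTSA value was not tested.

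CTSD, CTSL and CTSZ were called in neither line. CTSD, the aspartic protease, was the most abundant protease, with 151 ± 5.72 and 143 ± 22.98 CPM in 2102 EP and 197 ± 10.3 and 201 ± 11.7 in TCam-2. The log2 fold changes of the 3 genes ran from −0.08 to 0.35 in 2102 EP and from 0.01 to 0.15 in TCam-2. CTSL was called in 2102 EP without I-BRD9 replicate 1 (adjusted p = 0.0137), and CTSZ without DMSO replicate 3 (adjusted p = 0.0141).

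Of the 10 tested hydrolases of glycans, lipids and glycogen, 3 rose and 1 fell in 2102 EP and 5 rose in TCam-2, with medians of 0.22 and 0.32. NEU1, the lysosomal sialidase (ENSG00000204386, chr6:31857659-31862906, minus strand), had 34.2, 42.7 and 33.6 CPM with DMSO and 95.9, 109 and 109 with I-BRD9 in 2102 EP. Its controls in TCam-2 had 37.1, 37.6 and 43.7 CPM, and its treated libraries 52.2, 56.5 and 66.8. The groups were apart in both lines, and the log2 fold changes were 1.51 ± 0.11 (edgeR adjusted p = 6.03e-10) and 0.57 ± 0.11 (0.000484). ASAH1, the acid ceramidase, rose from 15.5 ± 0.774 to 24.4 ± 2.39 CPM (0.66, 0.000104) and from 60.4 ± 5.37 to 74.4 ± 2.96 (0.30, 0.0219). LIPA, the acid lipase of cholesteryl esters, went from 5.47 ± 0.556 to 8.41 ± 0.398 (0.62, 0.0282) and from 4.14 ± 0.0166 to 6.58 ± 1.51 CPM (0.67, 0.0255).

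The smaller of these calls were near the threshold, and leaving out any of several libraries ended them while the change stayed upward. ASAH1 was not called in TCam-2 without DMSO replicate 1 (adjusted p = 0.0621), DMSO replicate 3 (0.125), I-BRD9 replicate 1 (0.0689) or I-BRD9 replicate 3 (0.073). Its log2 fold change there ran from 0.23 to 0.36 over the alternatives. LIPA was not called in 2102 EP without DMSO replicate 2 (adjusted p = 0.109), I-BRD9 replicate 1 (0.0634) or I-BRD9 replicate 3 (0.0513), nor with DESeq2 (0.0529) or without the low-count filter (0.0744), at log2 fold changes of 0.53 to 0.67. LIPA was not called in TCam-2 without DMSO replicate 1 (adjusted p = 0.0614), DMSO replicate 2 (0.0637), DMSO replicate 3 (0.0586), I-BRD9 replicate 1 (0.0805) or I-BRD9 replicate 3 (0.127), nor without the low-count filter (0.0673), at 0.52 to 0.83.

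GAA, the acid glucosidase that degrades glycogen and has the pair of CLEAR cores printed above, had 14.4, 10.2 and 14.7 CPM in TCam-2 controls and 22.4, 20.2 and 19.8 after I-BRD9, a rise without overlap (0.67 ± 0.18, edgeR adjusted p = 0.005). In 2102 EP it had 13.5, 9.43 and 9.20 and 11.6, 14.7 and 12.05 CPM, with overlap (0.26 ± 0.19, 0.297). GLB1, the lysosomal beta-galactosidase, rose in TCam-2 from 60.7 ± 6.88 to 77.2 ± 4.48 CPM (0.35, 0.00863) and had 0.18 ± 0.11 in 2102 EP. The GLB1 call was lost without DMSO replicate 3 (adjusted p = 0.0629) or I-BRD9 replicate 1 (0.0591).

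SGSH, the sulfamidase of heparan sulfate breakdown (ENSG00000181523, chr17:80206716-80220923, minus strand), had 5.03, 4.95 and 3.07 CPM with DMSO in 2102 EP and 0.818, 2.10 and 1.78 with I-BRD9. It fell by 1.43 ± 0.32 on the log2 scale (edgeR adjusted p = 0.00105), with all treated libraries below all controls. In TCam-2 the order was the other way round, with 5.67, 7.11 and 6.49 CPM and then 10.1, 7.33 and 10.8. The groups did not overlap there, but the gene was not called (0.55 ± 0.26, 0.107), except in a fit on the 6 TCam-2 libraries alone (0.0379). GLA, GUSB, HEXA and NAGLU, which cleave other sugars, were called in neither line, with log2 fold changes between −0.08 and 0.30 in 2102 EP and between −0.20 and 0.22 in TCam-2. MAN2B1, the acid alpha-mannosidase, had 5, 8, 7 and 7 counts in the 4 groups (2102 EP with DMSO and I-BRD9, then TCam-2), and the protease gene CTSF had 3, 0, 8 and 20.

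The vacuolar ATPase is a proton pump of many subunits, of which 4 were in the set. ATP6V0D1, of the part in the membrane (ENSG00000159720, chr16:67438014-67481237, minus strand), had 38.8, 37.8 and 37.97 CPM with DMSO and 75.4, 66.1 and 59.5 with I-BRD9 in 2102 EP. TCam-2 had 39.4, 45.9 and 44.9 and 61.5, 55.6 and 53.2 CPM. It rose without overlap in both, by 0.81 ± 0.10 (edgeR adjusted p = 2.04e-06) and 0.39 ± 0.10 (0.00553). ATP6V1A, the subunit that hydrolyses ATP, and ATP6V0E1, of the membrane part, had rises of 0.24 ± 0.09 (0.0329) and 0.22 ± 0.07 (0.016) in 2102 EP. The first call was lost without DMSO replicate 1 (adjusted p = 0.129), DMSO replicate 2 (0.0559) or I-BRD9 replicate 2 (0.0978), and the second without DMSO replicate 2 (adjusted p = 0.0512). Both calls were also lost without the low-count filter. In TCam-2 these subunits had 0.19 ± 0.08 (0.0907) and 0.15 ± 0.07 (0.109), not called, although the treated libraries lay above the controls for both. ATP6V1H, of the part that faces the cytosol, had −0.05 ± 0.14 and 0.27 ± 0.13 (0.108, and 0.0343 in a fit on the 6 TCam-2 libraries alone). So 3 of the 4 rose in 2102 EP and 1 in TCam-2, with medians of 0.23 in both lines.

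Neither factor's transcript was called higher in either line. TFEB was scarce, at 2.29, 1.89 and 1.41 CPM with DMSO and 2.18, 3.21 and 2.23 with I-BRD9 in 2102 EP and 4.49, 7.43 and 4.53 and 6.53, 5.77 and 4.87 in TCam-2. Its groups overlapped in both lines, and its log2 fold changes were 0.45 ± 0.33 (edgeR adjusted p = 0.308) and 0.06 ± 0.28 (0.906). TFE3 (ENSG00000068323, chrX:49028726-49043486, minus strand) was far more abundant and fell in 2102 EP, from 74.1, 86.8 and 78.4 to 65.3, 52.5 and 52.7 CPM, without overlap (−0.49 ± 0.10, 0.000623). In TCam-2 its levels were 70.7, 63.7 and 57.9 and 52.9, 54.8 and 56.3 CPM, again without overlap but not called (−0.23 ± 0.10, 0.0949), and called without DMSO replicate 3 (adjusted p = 0.0438).

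The printed promoters can be set beside the responses. Of the 10 genes with a promoter entry that rose in both lines, 2 had an E-box (NEU1 and ATP6V0D1) and 1 the CLEAR core (ATP6V0D1). Of the 16 with an entry that were called higher in 1 line or more, 4 had an E-box and 3 the core. Of the 12 tested and not called higher in either line, 5 had an E-box and 3 the core. Among these 12, CLN3 and MCOLN1, which hold the core, had low counts and large errors. The counts are small and are a description only. Of the 10 genes with an E-box, NEU1 and ATP6V0D1 rose in both lines, and CTSA and GAA were called higher in TCam-2 alone. CD63 was called lower in TCam-2. LAMP1, CTSD, CLN3 and MCOLN1 were called in neither line, and CTSF was not tested. LAMP1, with 6 E-boxes, had log2 fold changes of 0.06 and 0.03. SQSTM1 and WIPI1, with no exact match, had 1.69 and 1.95 in 2102 EP. The part of the motifs in the responses was not tested.

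Whether the response differed between the lines was tested as the TCam-2 minus 2102 EP difference of the log2 fold changes. It was called for 7 of the 39 genes, 3 of them positive (7.69%) and 4 negative (10.3%). Over all genes tested the shares were 5.9% and 7.19%, so the counts are near the background. The differences were positive for SGSH (1.98 ± 0.41, edgeR adjusted p = 0.0016), ULK1 (0.75 ± 0.14, 0.000849) and GABARAPL1 (0.73 ± 0.12, 0.000208). Larger rises in 2102 EP gave negative differences for NEU1 (−0.94 ± 0.16, 0.000248), SQSTM1 (−0.87 ± 0.13, 4.48e-05), NPC2 (−0.68 ± 0.12, 0.000308) and CTSB (−0.54 ± 0.13, 0.00534). All 7 calls held when any 1 library was left out. WIPI1, with the largest rises, had a difference of 0.25 ± 0.36 (0.722).

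Other differences did not pass the test. MAP1LC3B had 0.68 ± 0.30 (edgeR adjusted p = 0.164), and was called without 2102 EP DMSO replicate 3 (adjusted p = 0.049) or 2102 EP I-BRD9 replicate 3 (0.0446). ATP6V0D1 had −0.42 ± 0.15 (0.0612), and was called without 2102 EP I-BRD9 replicate 3 (adjusted p = 0.0251), TCam-2 DMSO replicate 1 (0.0357) or TCam-2 I-BRD9 replicate 1 (0.0443). CTSC had 0.52 ± 0.22 (0.123). Across the 39 genes the log2 fold changes of the lines, which share no library, correlated with Pearson r = 0.618 and Spearman rho = 0.62, beside 0.389 and 0.468 over all 15614 genes. These values are across genes, which are not independent replicates, and the lines share the dose and the time.

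**Figure D3:**
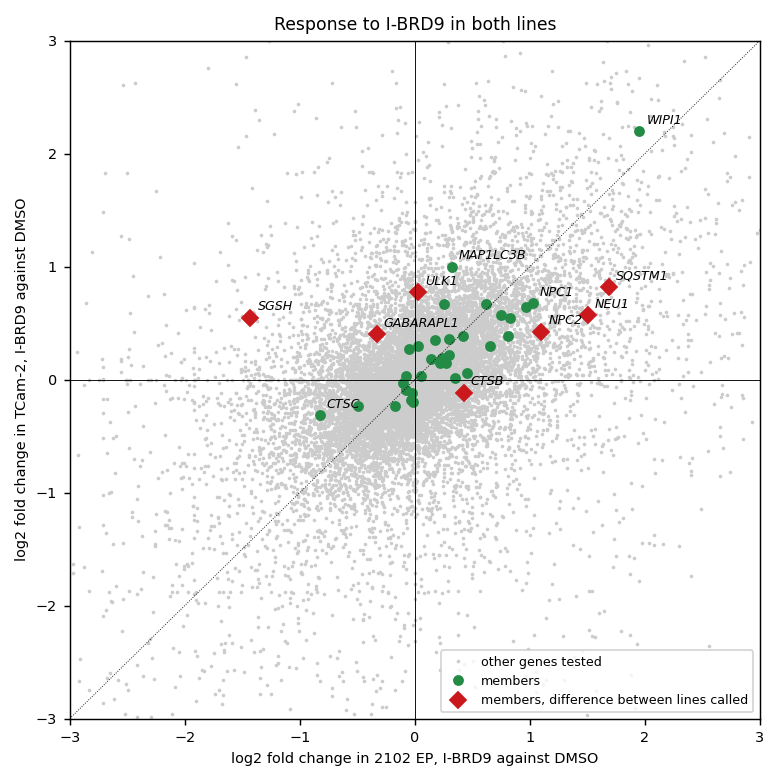
Log2 fold change with I-BRD9 against DMSO in 2102 EP (horizontal axis) and in TCam-2 (vertical axis), for the 39 tested genes (green) and for those 7 of them whose difference between the lines was called (red diamonds), over the other genes tested (grey, 433 genes lie outside the axes); the dotted line marks equal change. WIPI1, SQSTM1, NEU1, NPC1 and NPC2 lie in the upper right, SGSH and GABARAPL1 in the upper left, and CTSC in the lower left.

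The lines also differed in their levels without the compound. With DMSO 19 of the 39 genes were higher in TCam-2 (48.7%) and 9 lower (23.1%), where 31.7% and 30.8% of all genes were called. The median log2 difference, TCam-2 over 2102 EP, was 0.37. CTSZ, a carboxypeptidase, had the largest, 3.27 ± 0.15 (edgeR adjusted p = 1.14e-14), with 6.86, 6.01 and 9.84 CPM in 2102 EP and 76.4, 78.6 and 63.8 in TCam-2. ASAH1 (1.96), CTSB (1.89), NPC2 (1.60), TFEB (1.55), ATP6V1H (1.12), PSAP (1.10) and WIPI1 (1.03) were all called higher in TCam-2 by more than 1 on this scale. GLA, the alpha-galactosidase, was the farthest in the other direction, at −2.46 ± 0.18 (3.13e-11), with 32.9, 27.6 and 24.03 CPM in 2102 EP and 5.67, 5.31 and 4.41 in TCam-2. SQSTM1 was lower in TCam-2 by 1.26 ± 0.09 (6.29e-11), and CTSC by 0.95. Whether line, tumour type or medium goes with these differences cannot be told apart.

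With I-BRD9 22 of the 39 genes were higher in TCam-2 (56.4%) and 10 lower (25.6%), against 31.1% and 31.1% of all genes, and the median was 0.49. This comparison shares no library with the one in DMSO, but the treated groups enter the responses above. SGSH went from 0.56 ± 0.27 with DMSO (edgeR adjusted p = 0.0795) to 2.54 ± 0.30 with I-BRD9 (1.4e-07). NEU1 went from 0.10 ± 0.12 to −0.84 ± 0.11, GABARAPL1 from 0.08 ± 0.09 to 0.81 ± 0.09, and ULK1 from 0.38 ± 0.10 to 1.13 ± 0.10. The gap in SQSTM1 widened from −1.26 ± 0.09 to −2.12 ± 0.09. CTSZ and GLA had 2.94 ± 0.14 and −2.63 ± 0.18.

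**Figure D4:**
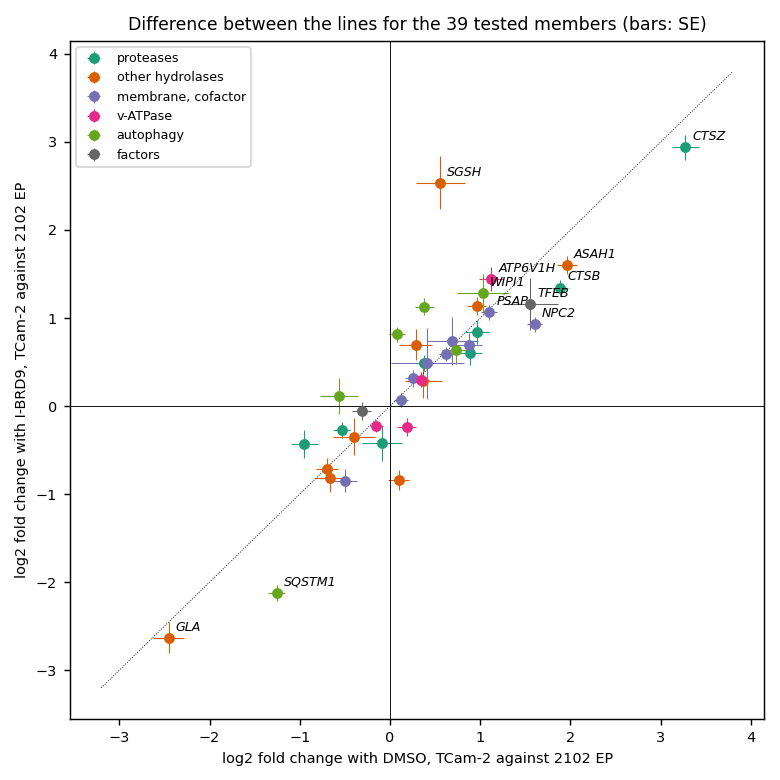
Log2 fold change of TCam-2 against 2102 EP with DMSO (horizontal axis) and with I-BRD9 (vertical axis) for the 39 tested genes, coloured by role; bars are the standard error of the model and the dotted line marks equal values. CTSZ and GLA lie at the ends near the line, and SGSH lies far above it.

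Other genes of the pathway were taken from 5 wider lists of lysosome and autophagy genes that hold none of the 41. These lists, too, were chosen with earlier results of these data known. Of 33 further lysosomal enzymes tested, of 36 in the table, 16 rose and 2 fell in 2102 EP, and 15 rose and 0 fell in TCam-2, with median log2 fold changes of 0.51 and 0.53. The risen shares were 48.5% and 45.5%, beside the 18.2% and 15.3% of all genes. In 2102 EP the largest rises above 10 CPM were those of IDS, the iduronate sulfatase, from 13.3 ± 1.02 to 31.9 ± 4.32 CPM (1.27, edgeR adjusted p = 2.89e-07), the carboxypeptidase SCPEP1 (1.20, 0.000335) and GALNS, a sulfatase of keratan sulfate (1.07, 1.06e-05). In TCam-2 they were MANBA, the beta-mannosidase, from 6.19 ± 0.726 to 15.5 ± 4.16 CPM (1.32, 1.97e-05), HGSNAT, an acetyltransferase of heparan sulfate breakdown (1.28, 8.42e-06), and AGA, which splits the sugar-asparagine bond (0.86, 0.000485). In the other line IDS (0.67, 0.000987), GALNS (0.53, 0.00697) and HGSNAT (0.95, 0.00142) rose as well. So did SCPEP1 in TCam-2 (0.81, 0.0143), a call lost without DMSO replicate 2 (adjusted p = 0.107) or I-BRD9 replicate 3 (0.098). MANBA and AGA had 0.44 ± 0.21 and 0.06 ± 0.17 in 2102 EP and were not called there. IDS and MANBA each shared reads with other genes in 3 libraries.

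Of 29 further genes of the lysosomal membrane and of sorting, 14 rose and 5 fell in 2102 EP, and 4 rose and 1 fell in TCam-2 (medians 0.38 and 0.20). The share that rose was 48.3% in 2102 EP, above the 18.2% of all genes, and 13.8% in TCam-2, near the 15.3% of all genes. The share that fell in 2102 EP, 17.2%, was near the 18.6% of all genes, and that in TCam-2 was 3.45% beside 16.5%. The channel genes MCOLN3 (2.72 ± 0.630 to 10.9 ± 0.481 CPM, log2 2.00, edgeR adjusted p = 9.03e-06) and TPCN1 (1.01, 7.16e-05) and the sialic acid exporter SLC17A5 (0.96, 2.44e-05) led in 2102 EP. In TCam-2 MCOLN3 had 1.00 ± 0.31 (0.0151), called although its groups overlapped, and the call was lost without DMSO replicate 1 (adjusted p = 0.0579), DMSO replicate 2 (0.084), I-BRD9 replicate 1 (0.0949) or I-BRD9 replicate 3 (0.0622). TPCN1 had 0.54 ± 0.18 there (0.0238), a call lost without DMSO replicate 1 (adjusted p = 0.105), DMSO replicate 3 (0.0642) or I-BRD9 replicate 1 (0.14), and SLC17A5 had 0.33 ± 0.14 (0.0667), not called. In TCam-2 GNPTAB, which makes the mannose 6-phosphate tag of lysosomal enzymes, rose by 0.51 ± 0.11 (0.0011). M6PR, a receptor for that tag, fell by 0.41 ± 0.11 (0.00692); its 3′ end overlaps PHC1 on the other strand, which had log2 fold changes of −2.11 and −1.82, and the part of PHC1 in the M6PR value was not tested. LAPTM4A rose by 0.25 ± 0.09 (0.0414) in TCam-2, a call lost without DMSO replicate 1 (adjusted p = 0.149), DMSO replicate 2 (0.108), DMSO replicate 3 (0.0584), I-BRD9 replicate 2 (0.0511) or I-BRD9 replicate 3 (0.271), the last with a log2 fold change of 0.14. In 2102 EP LAPTM4A fell by 0.26 ± 0.09 (0.0331), a call lost without DMSO replicate 2 (adjusted p = 0.217), I-BRD9 replicate 1 (0.135) or I-BRD9 replicate 3 (0.0609), with upper-quartile scaling (0.0709) and when only the 6 libraries of 2102 EP were fitted (0.0536). The difference between the lines was 0.51 ± 0.13 (0.0107), and was lost without 2102 EP DMSO replicate 2 (adjusted p = 0.0508).

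Of 18 further vacuolar ATPase genes, 7 rose and 1 fell in 2102 EP and 9 rose and 2 fell in TCam-2 (medians 0.16 and 0.29), so that 38.9% and 50% rose. Of all genes 18.2% and 15.3% rose. The shares that fell were 5.56% and 11.1%, beside 18.6% and 16.5% of all genes. ATP6V0E2 rose in both, from 20.4 ± 2.44 to 50.5 ± 4.61 CPM (1.30, edgeR adjusted p = 4.35e-09) and from 31.5 ± 1.53 to 54.3 ± 2.12 (0.79, 5e-06). ATP6V0A1 (0.97, 5.03e-06) and ATP6V1F (0.66, 7.04e-06) rose in 2102 EP, and in TCam-2 so did ATP6V1F (0.38, 0.00241) and ATP6V0A1 (0.45, 0.0145). The TCam-2 call of ATP6V0A1 was lost without DMSO replicate 1 (adjusted p = 0.0639), DMSO replicate 3 (0.0769) or I-BRD9 replicate 1 (0.0693). ATP6V1C2 rose in TCam-2 from 12.6 ± 0.921 to 31.96 ± 5.86 CPM (1.34, 1.88e-06) and had −0.36 ± 0.22 in 2102 EP (0.219), a difference of 1.70 ± 0.28 (0.000146). The 3′ end of ATP6V1C2 overlaps PDIA6 on the other strand, which was far more abundant (496.9 and 404.9 CPM in TCam-2 with DMSO and I-BRD9), with log2 fold changes of −0.64 and −0.37 in 2102 EP and TCam-2; its part was not tested.

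Of 55 further genes of the autophagy machinery, 18 rose and 9 fell in 2102 EP, and 17 rose and 4 fell in TCam-2, with medians of 0.06 and 0.16. The shares that rose, 32.7% and 30.9%, were above those of all genes (18.2% and 15.3%), and the shares that fell, 16.4% and 7.27%, were not (18.6% and 16.5%). OPTN, a cargo receptor like SQSTM1, rose from 18.6 ± 2.58 to 51.00 ± 5.91 CPM in 2102 EP (1.45, edgeR adjusted p = 5.53e-09) and from 21.1 ± 2.81 to 46.7 ± 0.0653 in TCam-2 (1.15, 2e-07). ATG3, the enzyme that joins LC3 proteins to lipid, fell in 2102 EP from 67.6 ± 2.49 to 35.1 ± 1.83 CPM (−0.95, 1.03e-07) and in TCam-2 from 51.2 ± 4.43 to 30.8 ± 2.30 (−0.73, 5.47e-06). VPS16, a tethering subunit, rose in both lines, by 0.81 ± 0.12 (8.99e-06) in 2102 EP and 1.05 ± 0.11 (7.78e-08) in TCam-2. In TCam-2 DEPP1, a gene under FOXO factors, rose from 20.5 ± 0.424 to 52.2 ± 6.16 CPM (1.35, 3.27e-08). DEPP1 also rose in 2102 EP (0.62, 0.0155), at under 5 CPM, a call lost without DMSO replicate 3 (adjusted p = 0.0623), with limma (0.0902) and when only the 6 libraries of 2102 EP were fitted (0.0764). BNIP3L, a receptor for mitochondria, rose in TCam-2 from 33.9 ± 1.77 to 70.4 ± 5.18 (1.06, 1.84e-07) and had 0.06 ± 0.13 in 2102 EP, a difference of 1.00 ± 0.17 (0.000252). Genes on the other strand at the 3′ ends of these 2 genes were scarcer in TCam-2, RASSF4 at 17.5 and 21.4 CPM beside DEPP1 and PNMA2 at 0.645 and 1.27 beside BNIP3L (DMSO and I-BRD9).

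Of 30 genes that control TFEB-type factors and the kinase mTORC1 at the lysosome, 10 rose and 3 fell in 2102 EP, and 8 rose and 0 fell in TCam-2 (medians 0.27 and 0.10), so that 33.3% and 26.7% rose. Beside these, 18.2% and 15.3% of all genes rose. The shares that fell were 10% and 0%, beside 18.6% and 16.5% of all genes. RRAGD, a small GTPase that places TFEB and mTORC1 on the lysosome, rose in 2102 EP from 10.5, 8.25 and 8.82 to 29.5, 29.4 and 27.4 CPM, without overlap (1.64 ± 0.21, edgeR adjusted p = 1.96e-06). In TCam-2 RRAGD was scarce and rose as well, from 0.118, 0.425 and 0.735 to 1.98, 4.08 and 2.20 CPM, 11 and 73 counts in the 3 libraries of each group (2.65 ± 0.42, 2.68e-05), and the difference between the lines was not called (1.00 ± 0.50, 0.19). Its partner RRAGC rose in 2102 EP by 0.78 ± 0.08 (1.42e-07), and FNIP1, a partner of folliculin, which acts on these GTPases, by 0.78 ± 0.12 (1.75e-05). RRAGC also rose in TCam-2, by 0.25 ± 0.08 (0.0263), a call lost without DMSO replicate 1 (adjusted p = 0.125), I-BRD9 replicate 2 (0.108) or I-BRD9 replicate 3 (0.0622), and its difference between the lines was −0.53 ± 0.12 (0.00328). FNIP2 had 0.64 ± 0.19 in 2102 EP (0.0107), called but lost without I-BRD9 replicate 3 (adjusted p = 0.0543). In TCam-2 FNIP2 (0.75, 0.0031), FNIP1 (0.52, 0.00172) and FOXO1 (0.49, 0.0157) led among genes above 10 CPM, and the FOXO1 call was lost without DMSO replicate 3 (adjusted p = 0.0976) or I-BRD9 replicate 3 (0.058).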

How the data were processed

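Total RNA of 12 libraries was read with a 3′ end kit, per the labels' protocols. The authors deposited 1 table of estimated counts by gene, and the submitters' processing notes name Trim Galore, STAR 2.7.11b, Salmon 1.9.0, R 4.2.0, DESeq2 and GRCh38, with no role for each. For the order of these steps, the annotation and the strand setting, the sources used here say nothing. Values more than 0.01 from a whole number were taken to mark shared reads.

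Rounded estimated counts entered edgeR 4.0.16 under R 4.3.3 (TMM, filterByExpr over 4 groups, robust glmQLFit and glmQLFTest) in 1 fit with 8 residual degrees of freedom, and adjusted by Benjamini and Hochberg over 15614 genes within each of 5 comparisons. The common biological coefficient of variation was 0.127. With 3 counts worth 0.298 to 0.412 CPM in a library, low genes are imprecise. The script was tested on simulated counts. Each of the 12 libraries had 1 column, and groups follow the labels.

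Alternatives were RLE size factors, upper-quartile scaling, DESeq2 1.42.0, limma 3.58.1 (voom), no low-count filter, only the compared groups, blocks by replicate number or library code, and leaving out each library. The members and lists were chosen with earlier results of these data known. Every member is accounted for. From each wider list the rule names, for each line, up to 3 called genes with the largest change whose higher group averages 10 CPM or more. Coordinates are from GENCODE 29, in which all 41 genes were found. Overlap with other genes' exons was looked for in the last 500 bases.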

Additional observations from a re-analysis of the deposited data

Results flagged for a closer look

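For 7 genes of the set the change with I-BRD9 differed between the lines by a test of the difference itself (edgeR, TCam-2 minus 2102 EP, log2 scale). SGSH had 1.98 ± 0.41, with lower levels in 3 of 3 treated libraries of 2102 EP and higher levels in 3 of 3 of TCam-2. GABARAPL1 had 0.73 ± 0.12, with the same pattern. ULK1 had 0.75 ± 0.14, from a change of 0.03 in 2102 EP and 0.77 in TCam-2. NEU1 had −0.94 ± 0.16, SQSTM1 −0.87 ± 0.13 and NPC2 −0.68 ± 0.12, all higher with I-BRD9 in both lines and more so in 2102 EP. CTSB had −0.54 ± 0.13, from 0.43 in 2102 EP and −0.12 in TCam-2. Of the genes named from the wider lists, 9 were also called for the difference. They were named for a large change in 1 line, which favours such a call, so this count is a description. Over the whole lists 0% to 14.5% of the tested genes of a list were called positive and 3.64% to 6.9% negative. Of all genes tested 5.9% and 7.19% were. ATP6V1C2 had 1.70, BNIP3L 1.00 and RRAGC −0.53. The other 6 calls were lost when 1 library or another was left out: MANBA (0.88, edgeR adjusted p = 0.0485), AGA (0.80, 0.0312), DEPP1 (0.73, 0.0437), LAPTM4A (0.51, 0.0107), SLC17A5 (−0.63, 0.042) and ATP6V0E2 (−0.52, 0.0272).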

How the results depend on the processing

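Each response and each comparison of the lines was recomputed under 14 alternatives and the difference of responses under 19, and within these no named gene reversed its direction where called. The number of genes of the set called higher stayed within 1.5 times its value for both lines and for the difference, and so did the counts over all genes. The count called lower in TCam-2, 1 (CD63), was 0 with upper-quartile scaling and 0 without the low-count filter, and 0 to 1 when 1 library was left out. Calls kept under every alternative were 16 of 20 in 2102 EP, 14 of 20 in TCam-2, 7 of 7 for the difference, 24 of 28 between lines with DMSO and 29 of 32 with I-BRD9. The calls lost in some setting were LIPA, LAMP2, ATP6V1A and ATP6V0E1 in 2102 EP, and CTSA, CTSH, GLB1, LIPA, ASAH1 and CD63 in TCam-2. The deviations of same-numbered replicates from their group means had r of −0.119, 0.096 and −0.079 in 2102 EP and 0.16, 0.034 and 0.127 in TCam-2. Pairs of other numbers had −0.119 to 0.175 in 2102 EP and −0.181 to 0.048 in TCam-2. These few values do not settle whether the TCam-2 replicates were paired, and the main fit takes no pairs. With a replicate block the set had 16 higher and 4 lower in 2102 EP, 19 and 1 in TCam-2, and 3 and 4 for the difference, and between the lines MAP1LC3B was lost with DMSO (adjusted p = 0.0554) and ATP6V0D1 with I-BRD9 (0.0553). Depth limits the scarce genes: TFEB, CLN3 and MCOLN1 had standard errors of 0.26 or more on the log2 scale. The errors of SGSH and WIPI1 in 2102 EP were also above 0.26, although both genes were called there. SGSH had 43 counts over the 3 libraries of 2102 EP with I-BRD9, and WIPI1 had 68 over those with DMSO.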
